A study of Mus musculus with 15 samples.

Results

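Tumors of the lesser curvature side of the gastric cardia were compared with normal stomach in mice. The comparison used the 3 samples labelled as tumor at the boundary of the lesser curvature of the cardia and the 3 labelled as normal tissue, 6 of the 15 bulk RNA-seq samples in the series, over all genes. The other 9 samples were tumors of the antrum, the corpus and the greater curvature side of the cardia, 3 of each. Every sample, the normals included, came from C57BL/6 mice, given as 7 to 8 weeks old, and carried 4 engineered alleles, Pou2f3-CreERT, floxed Rb1 and Trp53 (Rb1fl/fl and Trp53fl/fl) and a Cre-dependent stabilized Myc (LSL-MycT58A). All had received tamoxifen by intraperitoneal injection at 50 mg/kg, and tissue was taken 5 weeks after induction. The Cre recombinase is driven by Pou2f3, so recombination was directed to cells that express that gene, and the normal tissue carried the same alleles and had the same treatment. The stomach region from which the normal tissue was taken is not given in the labels. Samples are called lesser curvature 1 to 3 and normal 1 to 3 by their replicate numbers, and the lesser curvature samples are called the tumors unless other sites are named.

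Pou2f3 is the master factor of tuft cells, which sense chemicals in the gut lumen. Rb1 holds back the E2F factors that switch on S phase genes, p53 (Trp53) halts or kills damaged cells, and the stabilized Myc, a driver of ribosome production and growth, escapes degradation. Combined loss of Rb1 and p53 is characteristic of high-grade neuroendocrine carcinoma, a tumor whose cells carry secretory vesicles and the transcription factors of hormone-producing cells. The cardia joins the esophagus to the stomach. In mice it borders the forestomach, which is lined by squamous epithelium, while the glandular stomach beyond it holds acid-secreting parietal cells, pepsinogen-secreting chief cells and mucous cells.

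The tumors held 16338129, 7957165 and 17218092 counts in replicates 1 to 3, so lesser curvature 2 was the shallowest library of the series, and the normals held 17474336, 14728541 and 16444172. In each normal the 10 most abundant genes took 19.5% to 24.6% of counts, against 5.77% to 7.59% in each tumor. On the leading principal component, with 46.9% of the variance, lesser curvature 1 lay farthest from the normals and lesser curvature 2 nearest to them. The replicates are labelled biological, without a statement that they came from separate animals, so p-values measure the spread between these samples only.

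Of 16224 genes tested, 2955 (18.2%) were higher in the tumors and 2490 (15.3%) lower at an adjusted p under 0.05 (edgeR quasi-likelihood test, Benjamini-Hochberg adjustment over all genes tested), 5445 (33.6%) in all. All later adjusted p-values are from this test unless another tool is named, fold changes are log2 and tumor minus normal, SE is their standard error, and levels are CPM, counts per 1e+06 of the scaled library. The median log2 fold change over all genes was -0.05. All 3 tumors lay above all 3 normals for 27.4% of genes and below them for 27.3%. The gene lists below are read against these shares and against the 18.2% called higher and 15.3% called lower. Of the calls, 54.3% were higher, against 90.4% with limma on the deposited TPM table, where 6550 genes were higher and 698 lower and the median gene lay 0.63 higher in the tumors. Single libraries also moved the counts, to 1415 higher and 744 lower without lesser curvature 1 and 1624 higher and 815 lower without lesser curvature 3. Without normal 3 the counts were 1494 higher and 1321 lower, without normal 2 they were 1940 and 1737, and without normal 1 they were 2344 and 1489.

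**Figure D1:**
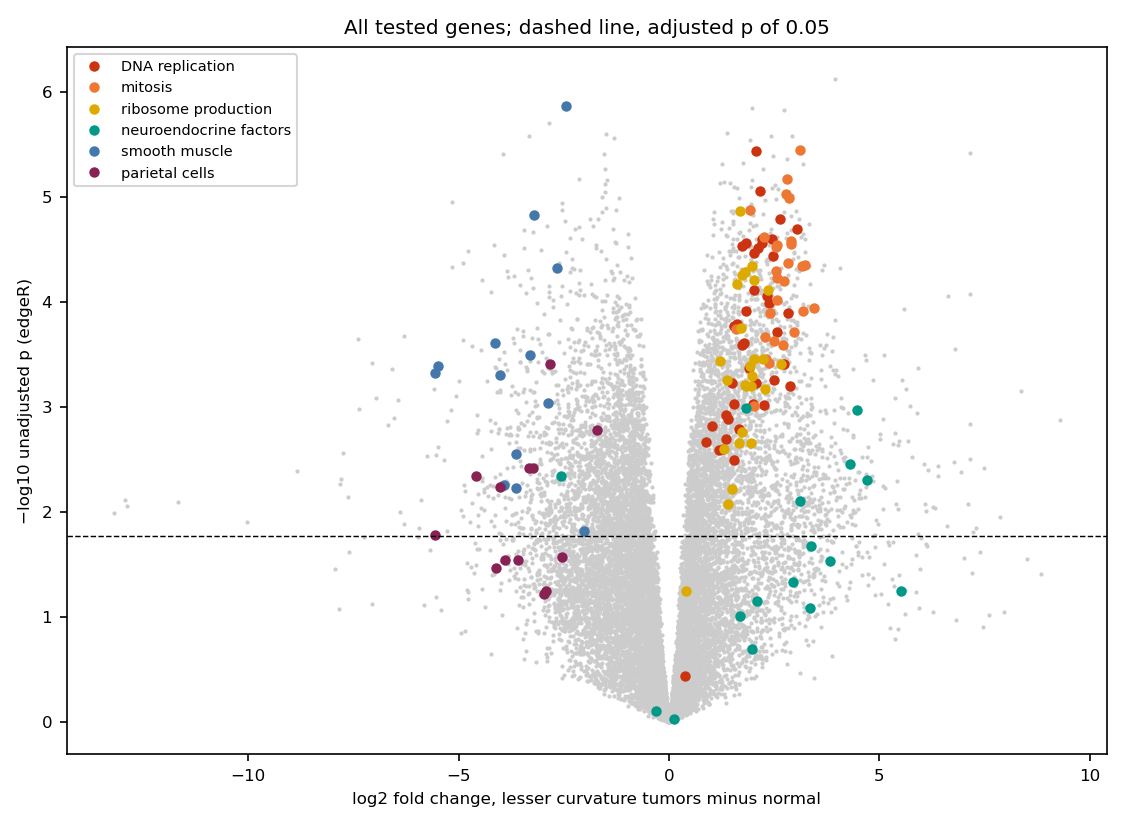
Log2 fold change of each tested gene in lesser curvature tumors against normal (x axis) and −log10 of its unadjusted edgeR p (y axis), with members of 6 gene lists in color and the rest in grey. Points above the dashed line passed an adjusted p of 0.05: all 28 mitosis genes, 40 of 41 DNA replication genes and 25 of 26 ribosome production genes to the right, and all 13 smooth muscle genes to the left.

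The genes of the engineered alleles were examined before the rest. Myc (chromosome 15, 61985391 to 61990374, GRCm38) stood at 98.4, 51.3 and 39.1 CPM in normals 1 to 3 and at 765, 180 and 503 CPM in lesser curvature 1 to 3. Every tumor was above every normal, with lesser curvature 2 lowest, and the difference of 2.94 (SE 0.66, adjusted p = 0.00923) passed under every alternative setting and without any 1 library. It is not stated in the sources used here whether transgene transcripts were counted as Myc. For Rb1 (chromosome 14, 73183673 to 73325822) the normals held 36.1, 49.5 and 42.7 CPM and the tumors 31.6, 41.6 and 29.5 CPM. The groups overlapped (log2 fold change -0.32, adjusted p = 0.307). Trp53 (chromosome 11, 69580359 to 69591873), at 29.2, 32.4 and 28.1 CPM in normal tissue and 24, 46.3 and 26.4 CPM in the tumors, overlapped too (log2 fold change 0.11, adjusted p = 0.812, but 0.0403 on the TPM table, where the median gene lies higher). Counts per gene include exons outside the floxed segments, so neither value measures recombination. Pou2f3 (chromosome 9, 43123939 to 43210369) was scarce, at 0.367, 5.32 and 0.612 CPM in the normals and 0.147, 1.23 and 1 CPM in the tumors (log2 fold change -1.42, adjusted p = 0.346). Its groups overlapped, and normal 2 alone was above the others.

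Genes of DNA replication rose nearly as a block. Of the 41 listed, all tested, 40 rose and none fell, beside 18.2% of all genes higher, and their median log2 fold change was 2.0. Mcm4, a subunit of the helicase that opens the DNA at replication forks, went from 19.0, 26.7 and 32.7 CPM in the normals to 107, 111 and 111 CPM in the tumors. The tumors were nearly equal and all far above the normals (2.07, SE 0.26, adjusted p = 0.00338). Ccne1, the cyclin E1 that starts S phase with Cdk2, stood at 5.36, 5.58 and 5.89 CPM in the normals and 55.6, 36.6 and 46.5 CPM in the tumors (3.04, SE 0.45, adjusted p = 0.00338). Its paralog Ccne2 rose by 2.63 and the helicase component Gins2 by 2.16, both with an adjusted p of 0.00338. Leaving out any 1 library left 36 to 40 of the genes higher, and none of these 4 calls was lost. The helicase genes Mcm3, Mcm5, Mcm6 and Mcm7, singled out here for their promoters and not by the rule for named genes, rose by 1.83, 2.22, 2.01 and 2.38 (adjusted p = 0.00342, 0.00342, 0.00344 and 0.00455). Mcm6 stood at 43.8, 56.4 and 79.3 CPM in the normals and at 241, 247 and 235 CPM in the tumors.

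Promoters of 15 replication genes, 44.1% of the 34 with a window, carry letters that E2F factors are known to bind. The 4 Mcm windows with more than 1 such match are printed here to show where they lie. Each window runs from 250 bases before to 50 bases after the gene's start, 5′ to 3′ on the gene's strand, from RefSeq on GRCm38.p6. Capitals mark the words TTTGGCGC, TTTCCCGC, TTTCGCGC and TTTGCCGC or their reverse complements, which may overlap each other. The windows lie at chr1:20820263-20820562 (minus strand) for Mcm3, chr8:75109259-75109558 (plus) for Mcm5, chr1:128359656-128359955 (minus) for Mcm6 and chr5:138171834-138172133 (minus) for Mcm7.
Mcm3: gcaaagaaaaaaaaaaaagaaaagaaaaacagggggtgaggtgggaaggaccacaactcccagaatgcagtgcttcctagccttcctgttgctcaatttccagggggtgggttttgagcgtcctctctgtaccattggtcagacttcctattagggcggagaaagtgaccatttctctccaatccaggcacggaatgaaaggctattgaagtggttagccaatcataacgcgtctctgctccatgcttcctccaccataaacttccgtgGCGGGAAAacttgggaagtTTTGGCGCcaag
Mcm5: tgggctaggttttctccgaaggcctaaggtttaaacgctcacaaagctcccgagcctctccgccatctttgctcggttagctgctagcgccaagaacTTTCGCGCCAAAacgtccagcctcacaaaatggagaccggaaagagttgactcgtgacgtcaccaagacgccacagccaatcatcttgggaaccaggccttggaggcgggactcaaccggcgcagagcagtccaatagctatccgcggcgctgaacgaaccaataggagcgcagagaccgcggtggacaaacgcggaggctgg
Mcm6: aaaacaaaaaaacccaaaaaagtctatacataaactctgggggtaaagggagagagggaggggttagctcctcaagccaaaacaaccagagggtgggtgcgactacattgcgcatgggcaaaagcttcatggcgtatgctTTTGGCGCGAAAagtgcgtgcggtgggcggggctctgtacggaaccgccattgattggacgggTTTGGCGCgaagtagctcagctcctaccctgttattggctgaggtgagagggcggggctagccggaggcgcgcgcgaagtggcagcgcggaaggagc
Mcm7: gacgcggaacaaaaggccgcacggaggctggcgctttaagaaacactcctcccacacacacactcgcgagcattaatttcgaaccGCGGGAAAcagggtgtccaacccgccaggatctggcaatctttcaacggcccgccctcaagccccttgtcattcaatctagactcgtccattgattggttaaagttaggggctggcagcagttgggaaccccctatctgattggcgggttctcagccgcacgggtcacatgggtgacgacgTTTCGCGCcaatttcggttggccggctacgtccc
In Mcm5 and in the upstream part of Mcm6, 2 overlapping words form a run of 12 bases. Of the 41 replication genes 34 had a window in the RefSeq table, 40 windows in all, and 37.5% of these held at least 1 of the words, against 2.26% of all 32851 windows. Among the windows of mitosis genes the share was 4.17%, of ribosome production genes 13%, of squamous genes 6.67% and of smooth muscle genes 0%. The comparison with all windows was not matched for base content. A match describes the letters in the window and not binding.

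Mitosis genes rose further still. All 28 listed genes were higher, with a median of 2.64 and a range of 1.59 to 3.44, and all 28 calls held under every alternative and without any 1 library. Bub1b, the checkpoint kinase BubR1 that delays chromosome separation, was at 12.6, 17.9 and 11 CPM in the normals and 121, 89.1 and 147 CPM in the tumors. No tumor approached a normal, and the difference was 3.11 (SE 0.39, adjusted p = 0.00338). The spindle checkpoint kinases Bub1 and Ttk rose by 2.84 and 2.81, and Prc1, which bundles microtubules of the dividing spindle, rose by 2.77, each with an adjusted p of 0.00338.

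Ribosome production genes rose as well, 25 of 26, with none lower and a median of 1.80. Nop58, a core protein of the particles that methylate ribosomal RNA, stood at 73.8, 76.8 and 78.4 CPM in the normals and 356, 246 and 302 CPM in the tumors. The normals agreed closely and every tumor was above them (1.98, SE 0.32, adjusted p = 0.00364). Utp20 and Nop2, which process ribosomal RNA precursors, and Gar1, of the pseudouridine-making particles, rose by 1.69, 1.80 and 1.74 (adjusted p = 0.00338, 0.00364 and 0.00375). Without single libraries the count ran from 20 to 26. The E-box CACGTG, the core site of Myc and its partner Max, was in 5 (21.7%) of the 23 windows of these genes and in 7.15% of all windows. Its share was 12.5% for replication, 8.33% for mitosis, 11.1% for smooth muscle and 0% for squamous genes. The Nop2 window, chr6:125131633-125131932 on the plus strand, is shown as the example, with the E-box in capitals.
Nop2: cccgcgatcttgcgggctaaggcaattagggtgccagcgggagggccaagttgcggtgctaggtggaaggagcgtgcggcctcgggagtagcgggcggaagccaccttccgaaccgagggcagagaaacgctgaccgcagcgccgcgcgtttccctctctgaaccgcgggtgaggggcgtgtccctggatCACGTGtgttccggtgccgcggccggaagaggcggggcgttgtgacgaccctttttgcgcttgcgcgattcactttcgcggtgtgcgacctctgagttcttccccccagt
Of 20 genes of nucleotide, one-carbon and polyamine metabolism linked to Myc, 15 rose and none fell, with a median of 1.62. Shmt1, which feeds one-carbon units to nucleotide synthesis, rose by 1.83 (SE 0.32, adjusted p = 0.00447), the guanine nucleotide enzyme Impdh2 by 1.67 (adjusted p = 0.00479), the purine enzyme Gart by 2.06 (adjusted p = 0.00506) and the pyrimidine enzyme Umps by 0.92 (adjusted p = 0.00503). The list's count was 8 without normal 3, 10 without normal 2 and 10 without lesser curvature 1, while these 4 calls held in every case.

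Genes that p53 is known to switch on had no common direction. Of 18 listed, 3 rose and 3 fell, beside 18.2% of all genes higher and 15.3% lower. These counts were near the shares over all genes. Their median of -0.06 became 0.67 on the TPM table, where 8 were higher and 1 lower. In a fit of only the normal and lesser curvature libraries with the block for replicate number (here called the paired fit of the 6 libraries), 6 rose and 5 fell. Btg2, an inhibitor of cell division, was at 246, 222 and 251 CPM in the normals and 76.9, 107 and 77.9 CPM in the tumors. The log2 fold change was -1.46 (SE 0.20, adjusted p = 0.00338) with no overlap and no call lost. Ccng1, the cyclin G1 gene, had a log2 difference of -1.52 (adjusted p = 0.0211), which was lost without normal 1 (0.0506), lesser curvature 1 (0.0857) or lesser curvature 3 (0.0796) and on the TPM table (0.0742). Rrm2b, a ribonucleotide reductase subunit, had one of -0.63 (adjusted p = 0.0212) that was lost without normal 1 (0.0648), normal 3 (0.0654), lesser curvature 2 (0.0503) or lesser curvature 3 (0.0803), and its sign turned on the TPM table. Gtse1, a G2 and S phase protein that also marks dividing cells, rose by 2.23 (adjusted p = 0.0052). Among 10 G1 inhibitors and cyclins 3 rose and 2 fell, or 1 rose and none fell without normal 3 or lesser curvature 1. Cdk4, the cyclin D kinase, rose by 1.73 (SE 0.37, adjusted p = 0.00821), with 83.6 to 106 CPM in normal tissue and 269 to 356 CPM after tumor formation. Cdkn2a, which encodes p16 and p19Arf, stood at 8.01, 0 and 1.45 CPM in the normals and 32, 16.7 and 63.8 CPM in the tumors (3.56, SE 1.14, adjusted p = 0.0332; 5.64 without normal 1), and its call was lost without normal 3 (0.105), lesser curvature 1 (0.0685) or lesser curvature 3 (0.102). The neighbouring inhibitor gene Cdkn2b went the other way, from 50.4, 36.4 and 34.6 CPM to 0.541, 8.28 and 6.02 CPM, with no overlap. Its log2 fold change was -3.05 (SE 0.94, adjusted p = 0.0294), a call that was lost without each library except lesser curvature 2 (adjusted p from 0.0516 to 0.0767). Cdkn1c, which encodes p57, had a log2 difference of -1.51 (adjusted p = 0.0211), lost without normal 1 (0.0762), normal 3 (0.0522) or lesser curvature 1 (0.0635), with the 6 libraries alone and no block (0.0906) and on the TPM table (0.17).

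Neuroendocrine transcription factors were higher in the tumors for most members, but fewer passed the test. Of 18 listed, 16 passed the filter on low counts, and of these 5 rose and 1 fell, with a median of 3.03. Prox1 (chromosome 1, 190118035 to 190170714), a factor of endocrine precursors that also marks lymphatic endothelium, stood at 6.47, 2.09 and 7.95 CPM in the normals and 178, 74.1 and 117 CPM in the tumors. All tumors were above all normals (4.48, SE 1.05, adjusted p = 0.0109), and no library's removal ended the call. Sox4, a factor of endocrine and neural progenitors, rose by 1.83 (SE 0.43, adjusted p = 0.0106). Myt1, which promotes endocrine differentiation, rose by 4.31 (SE 1.19, adjusted p = 0.0196), which was lost without normal 2 (0.051) or normal 3 (0.0672). Sox11, of the same family as Sox4 and named after its values were seen, was at 14.5, 0 and 3.29 CPM in the normals and 206, 104 and 156 CPM in the tumors. Its difference of 4.70 (adjusted p = 0.0241) was lost without normal 3 (0.0823), lesser curvature 1 (0.0627) or lesser curvature 3 (0.0551). Isl1, a factor of gastric hormone cells, was the member that fell, from 49.2, 12 and 37.2 CPM to 5.31, 7.16 and 4.30 CPM. The log2 fold change of Isl1 was -2.56 (SE 0.74, adjusted p = 0.0228), and the call was lost without normal 1 (0.0636), normal 3 (0.0581), lesser curvature 1 (0.0794) or lesser curvature 3 (0.0807). Without single libraries the list's count of genes higher was 4 (normal 1), 3 (normal 2), 2 (normal 3), 3 (lesser curvature 1) and 3 (lesser curvature 3), against 8 with DESeq2. In the paired fit of the 6 libraries 8 rose and none fell.

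The lineage factors Neurod1 and Insm1 did not pass in this test. Neurod1, a basic helix-loop-helix factor of enteroendocrine cells, was at 20.5, 0.785 and 7.72 CPM in the normals and 91.2, 69.9 and 63.3 CPM in the tumors. Its groups did not overlap, and the difference of 2.95 (SE 1.33) did not pass (adjusted p = 0.0998), against 0.0284 with DESeq2 and 0.0121 on the TPM table. Insm1, a repressor that all neuroendocrine cells share, was at 17.4, 1.66 and 10.1 CPM in the normals and 132, 63.2 and 106 CPM in the tumors (3.36, adjusted p = 0.0583). With a block for the replicate number Insm1 passed (0.0383), and with DESeq2 it did (0.0073). Insm1 was named after its values were seen.

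Vesicle and granule genes split in the same way, 6 of 24 higher and 1 lower, with a median of 1.88. Over all genes 18.2% were higher and 15.3% lower, so the count higher was not far above that share. Synaptophysin (Syp, chromosome X, 7638471 to 7653256), a vesicle membrane protein used to diagnose neuroendocrine tumors, stood at 20.0, 13.5 and 17 CPM in the normals and 109, 56.7 and 77.9 CPM in the tumors. There was no overlap, and the difference of 2.27 (SE 0.80, adjusted p = 0.0467) was lost without each library except lesser curvature 2 (adjusted p from 0.0869 to 0.128) and without the filter on low counts (0.066). Chga, the granule protein chromogranin A and the other diagnostic marker, was at 655, 181 and 798 CPM in the normals and 408, 1427 and 477 CPM in the tumors (0.50, adjusted p = 0.744). Lesser curvature 2 alone was above the normals for Chga. Ncam1 (chromosome 9, 49502136 to 49798925), the adhesion molecule CD56, rose by 2.27 (SE 0.49, adjusted p = 0.00813), from 16.0, 10.5 and 12.7 CPM to 79.8, 54.6 and 55.2 CPM, and the call held without any 1 library. Ddc, the enzyme that makes serotonin and dopamine, rose by 3.28 (adjusted p = 0.0317), the neuronal RNA-binding gene Elavl4 by 3.90 (adjusted p = 0.026) and Uchl1, the neuronal ubiquitin hydrolase named after its values were seen, by 3.22 (adjusted p = 0.0355). These calls were each lost without every library except lesser curvature 2 (adjusted p from 0.0571 to 0.103). Rab3b, a vesicle GTPase, had a log2 difference of -2.78 (adjusted p = 0.0126), lost without lesser curvature 3 (0.054) and in the paired fit of the 6 libraries (0.0646). The list's count of genes higher was 1 without normal 1, normal 2, normal 3, lesser curvature 1 or lesser curvature 3, 12 with DESeq2 and 11, with none lower, in the paired fit of the 6 libraries.

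**Figure D2:**
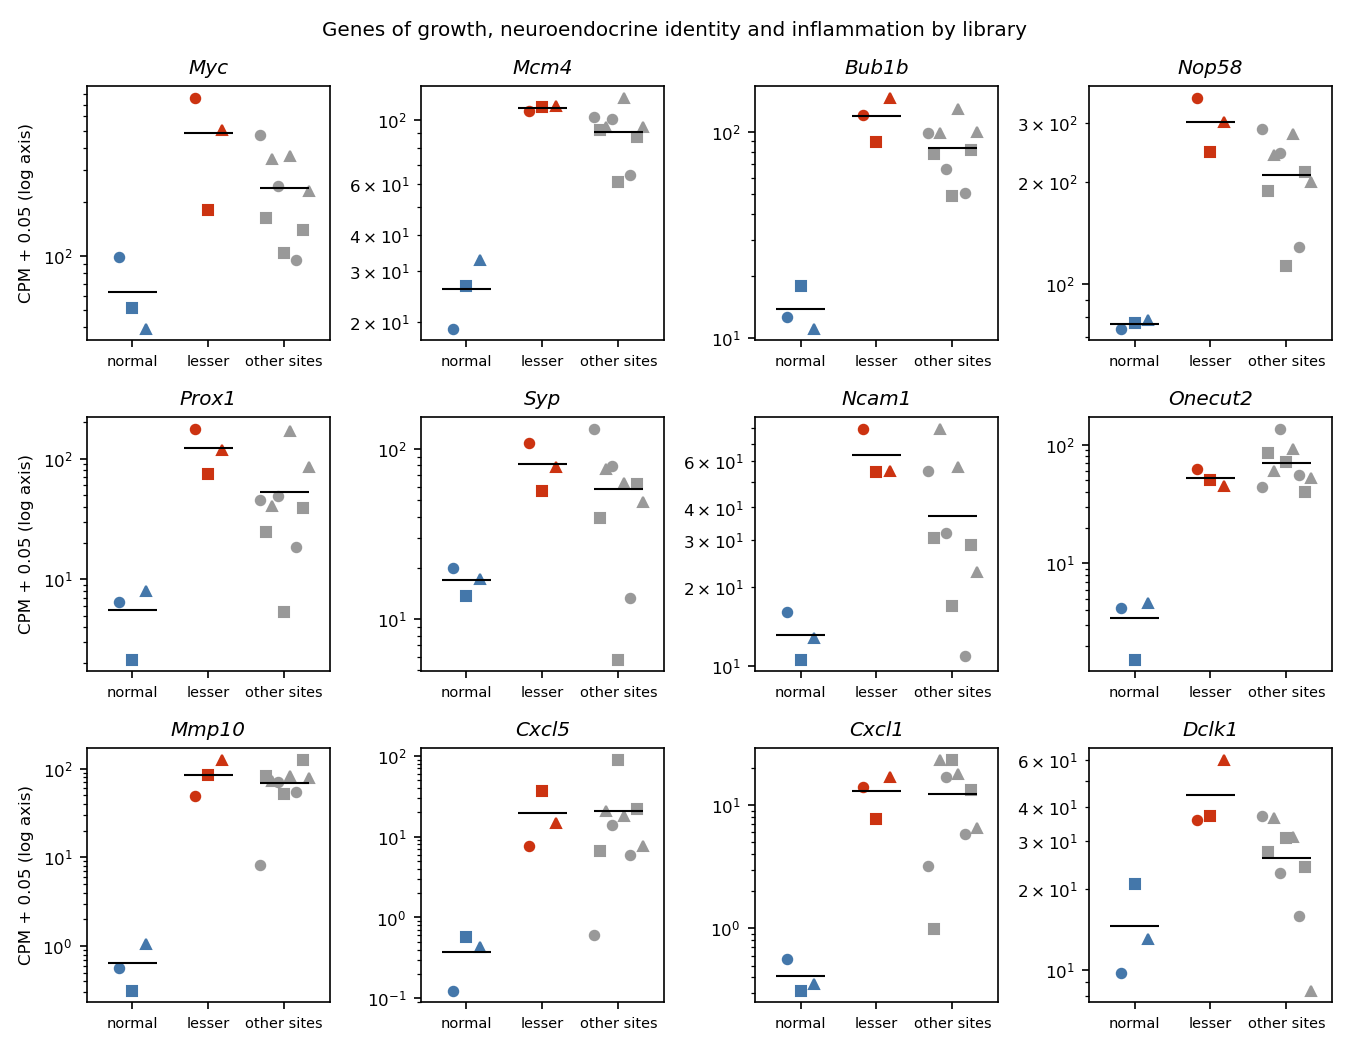
Level of 12 genes in each library, as CPM plus 0.05 on log axes, for normals (blue), lesser curvature tumors (red) and the 9 tumors of the other sites (grey). Circles, squares and triangles are replicates 1, 2 and 3 and lines are group means; in all 12 panels the 3 lesser curvature tumors lie above the 3 normals, while the grey points of the other sites reach into or span the red ones.

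Hormone genes went the other way. None of the 13 tested of 14 rose and 4 fell, with a median of -2.35. Ghrl, the ghrelin gene of the gastric glands, stood at 936, 542 and 942 CPM in the normals and 6.09, 104 and 101 CPM in the tumors, with no overlap. Its log2 fold change was -3.51 (SE 1.23, adjusted p = 0.045), which was lost without any 1 library (adjusted p from 0.0648 to 0.112). Gast, the gastrin gene of the antrum, was at 0, 37.1 and 604 CPM in the normals and had 1 count over the 3 tumors. The pooled ratio of normal to tumor was 10959 (95% counting interval 1966 to 432892), the call (adjusted p = 0.0308) was lost without normal 3 or any tumor (adjusted p from 0.0644 to 0.119) and on the TPM table (0.0628), and normal 1 was itself at 0. Tac1, the substance P precursor, fell from 5.88, 7.15 and 7.26 CPM to 0.442, 0 and 0.334 CPM, by 4.54 (SE 1.13, adjusted p = 0.0135), lost without lesser curvature 3 (0.0506). The hormone list's count was 1 without normal 3, 1 without lesser curvature 1, 0 without lesser curvature 3 and 1 in the paired fit of the 6 libraries, where 7 passed the filter.

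Few tuft cell genes passed the test. Of 20 listed 18 were tested, and 1 rose and 1 fell, with a median of -1.31, or 1 and 3 with the block for replicate number. The kinase gene Dclk1 (chromosome 3, 55242364 to 55539068), a tuft cell marker that neurons also express, was at 9.70, 20.8 and 13.0 CPM in the normals and 35.7, 37.0 and 59.9 CPM in the tumors. It rose by 1.61 (SE 0.39, adjusted p = 0.012) with no overlap. Ptgs1, the cyclooxygenase 1 gene, fell from 37.8, 44.5 and 69.3 CPM to 7.76, 9.29 and 10.4 CPM (-2.47, SE 0.36, adjusted p = 0.00338), also with no overlap, and neither call was lost without any 1 library. The taste channel Trpm5, a defining tuft gene named after its values were seen, was at 2.20, 11.8 and 4.89 CPM in the normals and 0.0491, 3.92 and 2.24 CPM in the tumors (-1.63, adjusted p = 0.343). Its groups overlapped, and lesser curvature 1 held 1 count.

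Factors of the foregut and its progenitors moved in both directions, 2 of 16 higher and 2 lower. Onecut2 (chromosome 18, 64340020 to 64400987), a homeobox factor of foregut endoderm that also appears in neuroendocrine carcinoma, rose from 4.11, 1.48 and 4.59 CPM to 62.3, 50.4 and 44.6 CPM (3.94, SE 0.42, adjusted p = 0.00338). Every tumor was far above every normal, and the call held without any 1 library. Gata4 and Gata6, factors of gastric epithelial identity, had log2 fold changes of -1.89 (adjusted p = 0.0193) and -2.49 (adjusted p = 0.0367). Gata6 was even in the normals, at 95.9, 97.3 and 96.2 CPM, and at 2.85, 38.3 and 10.7 CPM in the tumors. The Gata4 call was lost without lesser curvature 1 (0.0799) or lesser curvature 3 (0.0739), and the Gata6 call without each library except lesser curvature 2 (adjusted p from 0.0642 to 0.12); without that tumor its difference was -3.83 (adjusted p = 0.0106). Of 16 Wnt and Notch targets 1 rose and 2 fell, and the Wnt antagonist Nkd1 fell by 2.23 (SE 0.33, adjusted p = 0.00338), from 14.7, 17.6 and 17.4 CPM to 3.59, 4.03 and 3.01 CPM.

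Chemokines that attract neutrophils through the receptor CXCR2 were strongly higher. Of 8 tested of 9 genes, 5 rose and 1 fell, with a median of 5.07. Cxcl5 (chromosome 5, 90759360 to 90761624), the chemokine LIX, stood at 0.0735, 0.523 and 0.382 CPM in the normals and 7.57, 36.3 and 14.7 CPM in the tumors. No tumor came near a normal, and lesser curvature 2 was the highest (5.89, SE 1.39, adjusted p = 0.0112). Cxcl1 rose from 0.514, 0.262 and 0.306 CPM to 14.1, 7.72 and 16.7 CPM (5.11, SE 1.03, adjusted p = 0.00637). Cxcl2 and Cxcl3 rose by 5.37 and 5.74 (adjusted p = 0.00958 and 0.0105), and none of these 4 calls was lost without any 1 library. The receptor Cxcr2 itself was at 0.661, 2.27 and 0.688 CPM in the normals and 2.6, 2.46 and 2.48 CPM in the tumors (1.07, adjusted p = 0.217, or 0.0285 on the TPM table). Cxcl15, a chemokine of lung epithelium, was named after its values were seen and was the member that was lower. It held 42 counts over the normals and 3 over the tumors, a ratio of 18.4 (95% counting interval 5.89 to 92.9), and the call (adjusted p = 0.0288) was lost without normal 1, lesser curvature 1 or lesser curvature 2 (adjusted p from 0.0576 to 0.101).

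Neutrophil markers followed for 4 of 9 tested genes, with none lower and a median of 2.1. Il1b, the cytokine interleukin 1 beta that neutrophils and macrophages make, rose from 1.47, 0.872 and 0.994 CPM to 28.5, 9.40 and 14.9 CPM (3.98, SE 0.83, adjusted p = 0.00727). The list's count fell to 1 without normal 1, normal 2, normal 3 or lesser curvature 3 and to 2 without lesser curvature 1, and Il1b was never lost. Macrophage and monocyte markers rose for 7 of 16, with a median of 0.88. Cd14, the lipopolysaccharide co-receptor, was even in both groups, at 5.14, 4.80 and 5.20 CPM in the normals and 15.6, 21.0 and 17.5 CPM in the tumors (1.84, SE 0.41, adjusted p = 0.00923). Cd68 rose by 1.29 (adjusted p = 0.0105), the scavenger receptor Msr1 by 2.06 (adjusted p = 0.0111) and Cd4, borne by helper T cells and some macrophages, by 2.0 (adjusted p = 0.0123). The macrophage count was 3 without normal 3 or lesser curvature 1 and 4 without normal 1, normal 2 or lesser curvature 3. Of 12 T and NK cell genes 2 passed the filter on low counts. None of 8 mast cell genes passed, with a median of -3.07, nor did any under limma on the TPM table, while DESeq2 called 1 lower and the paired fit of the 6 libraries 4. The mast cell list summed to 12.9, 343 and 23.3 CPM in the normals and 0.442, 31.7 and 15.9 CPM in the tumors. Normal 2 stood far above the rest, and lesser curvature 2 lay above normals 1 and 3.

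Cytokines rose for 8 of 15 tested genes and fell for 1, with a median of 2.05. The inflammatory cytokine Tnf went from 0.0735, 0 and 0.229 CPM to 1.23, 1.34 and 1.39 CPM (3.58, SE 0.84, adjusted p = 0.0109). Inhba, the activin A subunit, rose by 4.08 (SE 0.92, adjusted p = 0.00958). Csf3, the growth factor G-CSF that drives neutrophil production, held 2 counts over the normals and 142 over the tumors, a ratio of 53.9 (95% counting interval 14.7 to 449.7). Its call (adjusted p = 0.0242) was lost without any 1 normal or lesser curvature 1 (adjusted p from 0.0605 to 0.0766). Il6, named after its values were seen, rose by 4.31 (adjusted p = 0.0374), which was lost without each library except lesser curvature 2 (adjusted p from 0.0607 to 0.113). The cytokine count was 5 without normal 1, 3 without normal 2, 3 without normal 3, 4 without lesser curvature 1 and 4 without lesser curvature 3.

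Matrix proteases and their inhibitors rose for 7 of 16 genes and fell for 2, with a median of 1.60. Mmp10 (chromosome 9, 7502352 to 7510240), the metalloproteinase stromelysin 2, stood at 0.514, 0.262 and 0.994 CPM in the normals and 49.1, 83.5 and 123 CPM in the tumors. The difference of 7.14 (SE 0.90, adjusted p = 0.00338) was among the largest of any gene and no library's removal ended it. The collagenase Mmp13 rose by 5.92 (SE 1.23, adjusted p = 0.00713) and the macrophage elastase Mmp12 by 4.05 (SE 0.66, adjusted p = 0.00364). The protease Prss22 went from 0.220, 0.262 and 0.382 CPM to 1.82, 19.0 and 9.55 CPM (5.09, adjusted p = 0.0121). The protease inhibitor Timp1, named after its values were seen, rose by 2.71 (adjusted p = 0.0112), and the stromelysin Mmp3, likewise, by 3.93 (adjusted p = 0.018), which was lost without normal 1 (0.0549), normal 2 (0.0582) or lesser curvature 3 (0.0556).

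The 10 largest increases among called genes with no overlap and a mean of at least 10 CPM in the tumors included Mmp10, Mmp13, Cxcl5, Cxcl2, Cxcl1, Prss22, Col10a1, Col2a1 and Peg10. Col10a1, the collagen of hypertrophic cartilage, had 1 count over the normals and 47.3, 13.7 and 3.25 CPM in the tumors, a ratio of 875 (95% counting interval 157 to 34596). Col2a1, the main cartilage collagen, had 3 counts over the normals and 0.639, 18.5 and 17.1 CPM in the tumors, a ratio of 136 (46.2 to 660.2). The 2 cartilage collagens did not rank the tumors alike, since lesser curvature 1 was highest for Col10a1 and lowest for Col2a1. The Col2a1 call (adjusted p = 0.0186) was lost without normal 2 (0.0578) or normal 3 (0.0639). Peg10, an imprinted gene of retroviral origin expressed in placenta and neuroendocrine carcinoma, stood at 37.6, 2.36 and 13.8 CPM in the normals and 2643, 124 and 847 CPM in the tumors. Every tumor exceeded every normal, with lesser curvature 1 far above the rest (6.07, SE 1.67, adjusted p = 0.0194), and the call was lost without normal 2 (0.0544), normal 3 (0.0688) or lesser curvature 1 (0.0657).

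Gastric epithelial genes were lower in the tumors, by amounts that differed widely between the 3 tumors. All 13 parietal cell genes tested were below all normals, with a median of -3.33, and 7 of them fell by the test, beside 15.3% of all genes lower, or 12 with the block for replicate number and 13 with DESeq2. Their summed level was 12550, 10268 and 8547 CPM in the normals and 99.99, 1924 and 557 CPM in the tumors. The count fell to 2 without normal 1, 2 without lesser curvature 1, 1 without lesser curvature 3 and 2 in the paired fit of the 6 libraries. Chrm3, the acetylcholine receptor that triggers acid secretion, was at 29.3, 13.2 and 12 CPM in the normals and 1.08, 3.58 and 3.10 CPM in the tumors (-2.82, SE 0.58, adjusted p = 0.00687), and its call held without any 1 library but not in the paired fit of the 6 libraries (0.0542). Esrrg, a nuclear receptor of parietal cells, had a log2 difference of -1.72 (adjusted p = 0.0136), at -1.08 without normal 1, lost without lesser curvature 3 (0.0556) and on the TPM table (0.188). Gif, the intrinsic factor gene, was counted in this list, had its largest fall and was named after its values were seen. Whether its RNA came from parietal or chief cells was not tested. Gif stood at 1748, 1332 and 1120 CPM in the normals and 0.0491, 68.7 and 20.7 CPM in the tumors. Its log2 fold change was -5.56 (adjusted p = 0.0495), lost without any 1 library (adjusted p from 0.0504 to 0.141). In bulk tissue fewer cells of a type and less RNA per cell cannot be told apart.

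Chief cell genes had the lowest median of the gastric lists, at -4.99. Of 6 tested of 7, 3 fell and 4 lay below all normals. Their log2 fold changes ran from -7.82 to 0.10, so not every member was lower. Pgc (chromosome 17, 47726842 to 47734482), the pepsinogen C gene, stood at 125472, 57013 and 90203 CPM in the normals and 2.06, 2548 and 914 CPM in the tumors. The ranges lay far apart, and the difference of -6.30 (SE 2.16, adjusted p = 0.0423) was lost without any 1 library (adjusted p from 0.0522 to 0.125). Gkn3, a gastrokine, fell from 4695, 635 and 996 CPM to 2.16, 40.5 and 25.4 CPM (-6.54, SE 1.57, adjusted p = 0.012). That call held without any 1 library and was lost in the paired fit of the 6 libraries (0.0658). Gkn3 was counted in this list, but whether its RNA came from chief or mucous cells was not tested. Chia1, the acid chitinase, was at 10315, 3868 and 14443 CPM in the normals and 0.0983, 73.5 and 53.6 CPM in the tumors (-7.82, adjusted p = 0.0253), lost without normal 3 (0.0552), lesser curvature 1 (0.0566) or lesser curvature 3 (0.0798). The chief cell count was 2 without normal 1 or normal 2, 1 without normal 3, lesser curvature 1 or lesser curvature 3 and 0 in the paired fit of the 6 libraries.

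Of 12 pit and neck mucous cell genes 3 fell and 10 lay below all normals, with a median of -2.78. Muc6 (chromosome 7, 141633456 to 141655319), the gland mucin of neck cells, was at 51297, 2238 and 2718 CPM in the normals and 17.9, 200.4 and 122 CPM in the tumors. Every tumor was below every normal although normal 1 stood far above the other normals (-7.37, SE 1.72, adjusted p = 0.0107), and no library's removal ended the call, which was lost in the paired fit of the 6 libraries (0.101), though the difference was -4.45 without normal 1 (adjusted p = 0.0317). A4gnt, which puts the terminal sugar on that mucin, had a log2 difference of -5.76 (adjusted p = 0.0179), lost without lesser curvature 3 (0.0674) and in the paired fit of the 6 libraries (0.104). Tff2, the trefoil peptide secreted with it, had one of -4.93 (adjusted p = 0.035), lost with the block for replicate number (0.0505) and without normal 1 (-2.86, adjusted p = 0.135), lesser curvature 1 (0.0905) or lesser curvature 3 (0.111). The mucous count was 2 without normal 1 or lesser curvature 1 and 1 without lesser curvature 3.

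Antral genes depended on the normals. Nkx6-3, a homeobox factor of the antrum, was at 0.220, 55.1 and 119 CPM in normals 1 to 3 and at 0 in all tumors, so it was at least 964-fold lower against a floor of 3 counts over the group. Its call (adjusted p = 0.0335) was lost with the block (0.0659) and without any library except normal 1 (adjusted p from 0.0527 to 0.0913). Pdx1, the antral and duodenal homeobox factor, was likewise low in normal 1, at 0.514, 26.3 and 33.6 CPM, and at 0.0983, 1.01 and 0.478 CPM in the tumors, so the groups overlapped (-5.35, adjusted p = 0.0188, lost without normal 3, lesser curvature 1 or lesser curvature 3 with adjusted p from 0.0521 to 0.074, and on the TPM table with 0.0594). Normal 1 therefore held little RNA of the antral factors and of Gast, while it held the most Muc6. Among the 10 largest decreases by the same rule were also Cybrd1, a duodenal iron reductase, at 78.9, 325 and 1309 CPM in the normals and 2.46, 6.71 and 4.73 CPM in the tumors (-6.96, SE 1.57, adjusted p = 0.00963), and the lipase gene Pnliprp2 (-6.43, SE 1.46, adjusted p = 0.00977), whose calls held without any 1 library. Clps, the colipase gene, had a log2 difference of -5.89 (adjusted p = 0.0308), lost without normal 1, normal 3 or lesser curvature 3 (adjusted p from 0.0526 to 0.102). The intestinal genes Zg16 (adjusted p = 0.0296) and Prap1 (adjusted p = 0.0215) rested on normal 3, at 341 and 63.3 CPM there and under 2 CPM in the other normals, and had log2 fold changes of -1.51 and -3.03 without it (adjusted p = 0.462 and 0.213). Zg16 was also lost with the block (0.0584) and without any 1 tumor (adjusted p from 0.0644 to 0.0999), and Prap1 without lesser curvature 1 (0.0799) or lesser curvature 3 (0.0748).

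None of 12 genes common to all simple epithelia passed the test in edgeR or DESeq2, against 1 higher and 3 lower in the paired fit of the 6 libraries, and their median was -1.54. Krt18, a keratin of simple epithelium, was at 735, 922 and 781 CPM in the normals and 25.3, 401 and 208 CPM in the tumors (-1.94, adjusted p = 0.15). Cldn18, the tight junction gene of the stomach, was at 702, 1705 and 1483 CPM in the normals and 5.26, 457 and 157 CPM in the tumors (-2.65, adjusted p = 0.141). Epcam, the adhesion molecule of epithelium named after its values were seen, was at 275, 282 and 264 CPM in the normals and 28.1, 184 and 100.4 CPM in the tumors (-1.40, adjusted p = 0.24). In CPM no tumor reached a normal in these 3 genes. On the TPM table lesser curvature 2 was above all normals for Epcam, at 184 against 159 to 169 TPM. For Cldn18 it was above normal 1 there, at 303 against 272 TPM. In all 3 genes the order of the tumors was the same, with lesser curvature 1 lowest and lesser curvature 2 highest. The summed gastric markers gave the same order. For pit and neck mucous cells they were 151, 27603 and 10113 CPM in lesser curvature 1 to 3 and 106358 to 114247 CPM in the normals.

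**Figure D3:**
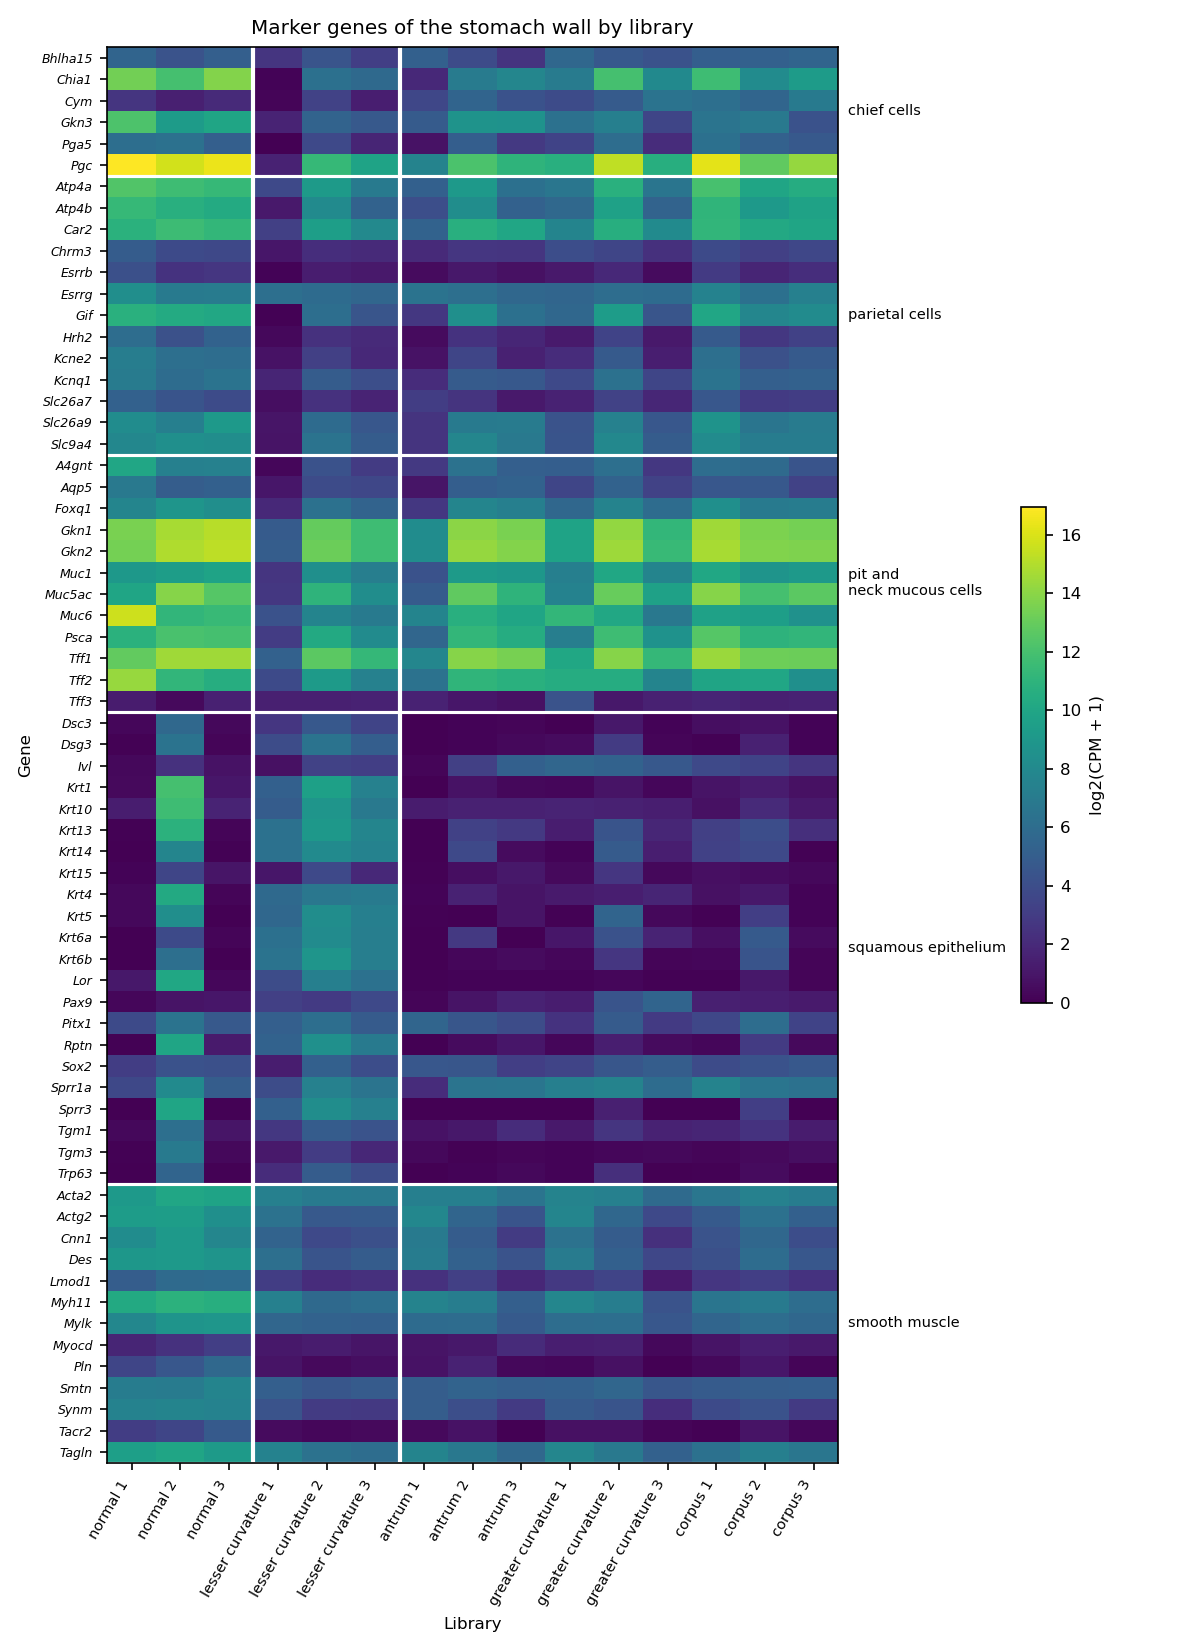
Log2(CPM + 1) of the tested chief cell, parietal cell, mucous cell, squamous and smooth muscle genes (y axis) in each of the 15 libraries (x axis). Chief, parietal and mucous genes are darkest in lesser curvature 1, squamous genes are bright in normal 2 and in all 3 lesser curvature tumors, and smooth muscle genes are bright in the 3 normals.

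Squamous epithelium genes set the tumors against 2 of the 3 normals but not against the other. The 22 listed genes summed to 37.0 CPM in normal 1, 14688 CPM in normal 2 and 82.6 CPM in normal 3, and to 667, 4491 and 1852 CPM in the tumors. Normal 2 therefore held more than any tumor, and 1 of the 22 genes rose in the test, with a median of -0.06. Without normal 2 the count was 15 higher and the median 7.48, with the block for replicate number it was 3 and 1.31, on the TPM table the median was 2.05, and without any library of normal 1, normal 3, lesser curvature 1 or lesser curvature 3 the count was 0. Krt1, a keratin of cornifying squamous cells, was at 0.367, 3886 and 1.07 CPM in the normals and 35.6, 778 and 175 CPM in the tumors. Its log2 fold change was -1.98 (adjusted p = 0.459) with all normals and 8.83 without normal 2 (adjusted p = 0.0106). Krt13, a keratin of non-cornified squamous layers, turned from -1.22 to 11.1 (adjusted p = 0.0162) in the same way, and Lor, the cornified envelope protein loricrin, from -2.11 to 6.95 (adjusted p = 0.0111). These 3 genes were named after their values were seen. Tgm3, the transglutaminase that crosslinks that envelope, turned from -3.48 to 4.21 (adjusted p = 0.0198).

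The keratins Krt6a and Krt6b behaved otherwise, since all tumors were above all normals, normal 2 included. Krt6a, a keratin of activated and proliferating squamous cells, was at 0, 12.8 and 0.153 CPM in the normals and 75.3, 281 and 149.6 CPM in the tumors (5.30, adjusted p = 0.0954, or 0.00624 with the block for replicate number). Krt6b was at 0, 71.6 and 0 CPM in the normals and 85.9, 448 and 149 CPM in the tumors (3.26, adjusted p = 0.254, or 0.0174 with the block). The 2 genes are near-identical neighbours on chromosome 15, and reads could be split between them. Pax9, a factor of the esophagus and forestomach, was the member that passed, from 0.220, 0.872 and 1.07 CPM to 8.11, 6.49 and 12.6 CPM (3.64, SE 1.05, adjusted p = 0.0233), which was lost without each library except lesser curvature 2 (adjusted p from 0.0543 to 0.0672).

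**Figure D4:**
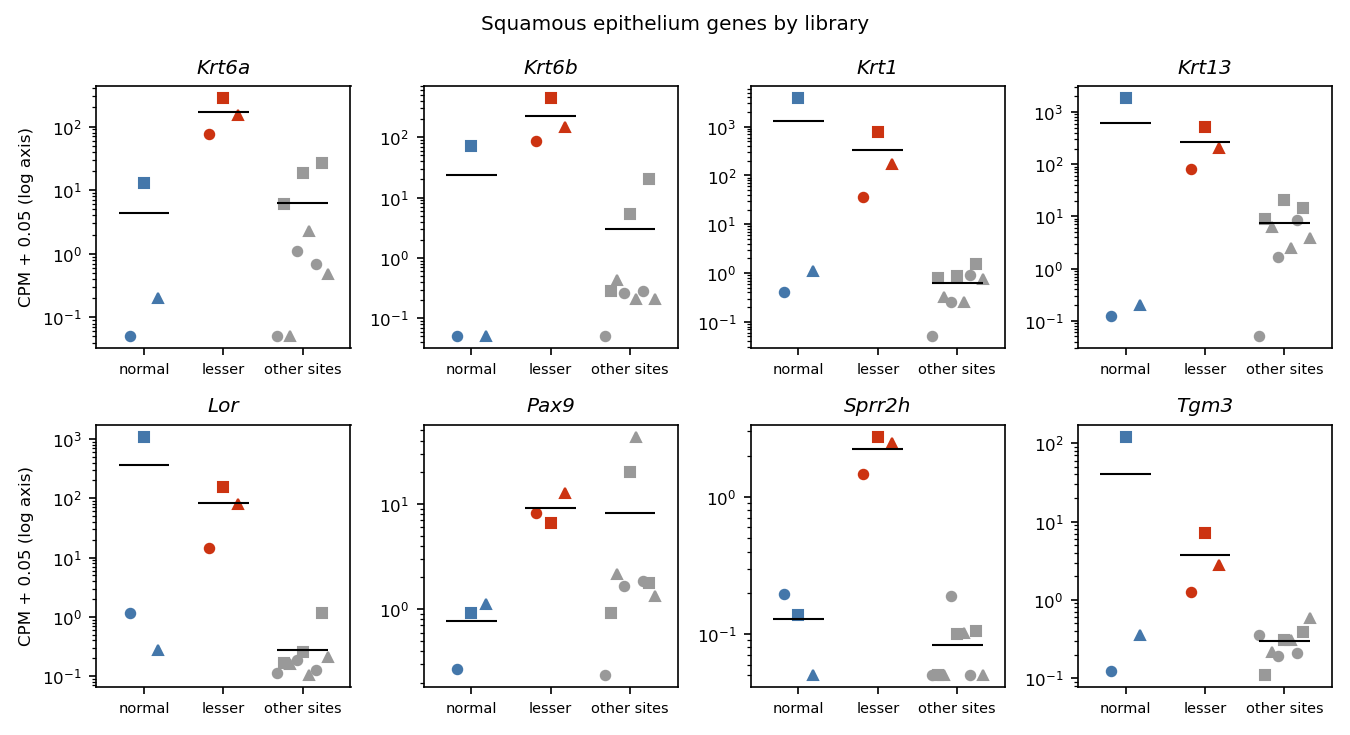
Level of 8 squamous genes in each library, as CPM plus 0.05 on log axes, for normals (blue), lesser curvature tumors (red) and the 9 tumors of the other sites (grey), with circles, squares and triangles for replicates 1, 2 and 3 and lines for group means. For Krt1, Krt13, Lor and Tgm3 the blue square of normal 2 lies above the 3 red points and the other normals far below them, while for Krt6a, Krt6b, Pax9 and Sprr2h all 3 red points lie above all blue ones.

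Smooth muscle genes fell without exception. All 13 were below all normals and all 13 passed, with a median of -3.64 and 9 to 12 calls without single libraries. Smtn (chromosome 11, 3517523 to 3540612), the contractile protein smoothelin, went from 135, 132 and 195 CPM to 34.7, 21.9 and 27.8 CPM (-2.45, SE 0.28, adjusted p = 0.00338). Mylk, the myosin light chain kinase, was at 228, 436 and 468 CPM in the normals and 47.8, 38.5 and 36.1 CPM in the tumors (-3.21, SE 0.46, adjusted p = 0.00338). The muscle actin Acta2 had a difference of -2.67 (SE 0.43, adjusted p = 0.00364) and the filament protein Synm of -4.13 (SE 0.81, adjusted p = 0.0059), and these 4 calls held without any 1 library. Here the order of the tumors was not that of the gastric markers. The list summed to 815 CPM in lesser curvature 1, 388 CPM in lesser curvature 2 and 396 CPM in lesser curvature 3, against 4622 to 6610 CPM in the normals.

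Genes of the nerves in the wall were split. Of 12 enteric neuron and glia genes 1 rose and 3 fell. Hand2, a factor of enteric neurons that wall mesenchyme also expresses, fell from 20.1, 19.6 and 41.7 CPM to 1.08, 0.112 and 0.955 CPM (-5.16, SE 0.84, adjusted p = 0.00364). The glial factor Sox10 fell from 1.10, 1.40 and 2.91 CPM to 0.197, 0.112 and 0.143 CPM (-3.47, SE 0.78, adjusted p = 0.0091). Both calls held without any 1 library. Elavl3, a neuronal RNA-binding gene that neuroendocrine tumors can also express, went the other way, from 17.3, 0.785 and 5.35 CPM to 197, 62.6 and 134 CPM (4.07, adjusted p = 0.0446), lost without normal 2, normal 3, lesser curvature 1 or lesser curvature 3 (adjusted p from 0.0873 to 0.125).

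Stromal genes as a list did not follow the muscle. Of 15 fibroblast and matrix genes 1 rose and none fell, with a median of 0.49, against 8 higher on the TPM table. That gene was Pdgfrb, the receptor of pericytes and fibroblasts, at 24.0, 13.9 and 22.6 CPM in the normals and 56.5, 54.0 and 72.6 CPM in the tumors (1.60, SE 0.31, adjusted p = 0.006). Cdh2, the N-cadherin of mesenchymal and neural cells, rose from 8.67, 4.27 and 4.28 CPM to 58.8, 39.2 and 49.8 CPM (3.10, SE 0.45, adjusted p = 0.00338), and both calls held without any 1 library. It was among the 3 of 7 mesenchymal transition genes that rose, and Zeb1, a repressor of epithelial genes named after its values were seen, rose by 1.14 (adjusted p = 0.0254), which was lost without each library except lesser curvature 2 (adjusted p from 0.0566 to 0.109). The list's count was 1 without normal 1, normal 2, normal 3, lesser curvature 1 or lesser curvature 3. Of 12 endothelial genes 3 rose and 2 fell, Prox1 being counted there as well, and the median of -0.39 became 0.30 on the TPM table. Apln, the tip cell peptide apelin, rose from 1.10, 1.13 and 0.459 CPM to 6.49, 8.28 and 7.21 CPM (3.02, SE 0.43, adjusted p = 0.00338). Angpt2, the angiopoietin of sprouting vessels named after its values were seen, rose by 1.51 (adjusted p = 0.0329), which was lost without normal 2, normal 3, lesser curvature 1 or lesser curvature 3 (adjusted p from 0.0512 to 0.187) and stood at 0.82 without lesser curvature 1.

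Antigen presentation genes split the tumors. None of 12 passed in edgeR, with a median of -1.26, while DESeq2 called 1 lower, and 3 fell with the block for replicate number and 6 without lesser curvature 2. H2-K1, a classical class I molecule, was at 1206, 1217 and 992 CPM in the normals and 146, 719 and 212 CPM in the tumors (-1.67, adjusted p = 0.0836, or 0.0262 with the block and 0.0211 without lesser curvature 2). B2m, the light chain of class I, was at 664, 848 and 580 CPM in the normals and 49.3, 450.5 and 94.8 CPM in the tumors (-1.82, adjusted p = 0.165, or 0.0424 with the block and 0.0406 without lesser curvature 2). In both, lesser curvature 2 was the nearest to the normals, as it was for the gastric epithelial genes, and the part of tissue makeup in this was not tested. None of 10 interferon response genes passed in edgeR (median -2.09), with 1 lower by DESeq2 and 9 lower in the paired fit of the 6 libraries.

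Of 10 genes of plasma proteins made mainly in liver 3 rose, and these were the 3 fibrinogen chain genes. Fgb, the fibrinogen beta chain, went from 0.220, 0 and 0.229 CPM to 4.03, 10.4 and 5.92 CPM (5.38, SE 1.35, adjusted p = 0.0139, or 0.0507 on the TPM table). Fgg, the gamma chain, held 3 counts over the normals and 201 over the tumors, a ratio of 50.9 (95% counting interval 17.2 to 249), with an adjusted p of 0.0152 that became 0.0544 without normal 3. The groups of both genes did not overlap.

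**Figure D5:**
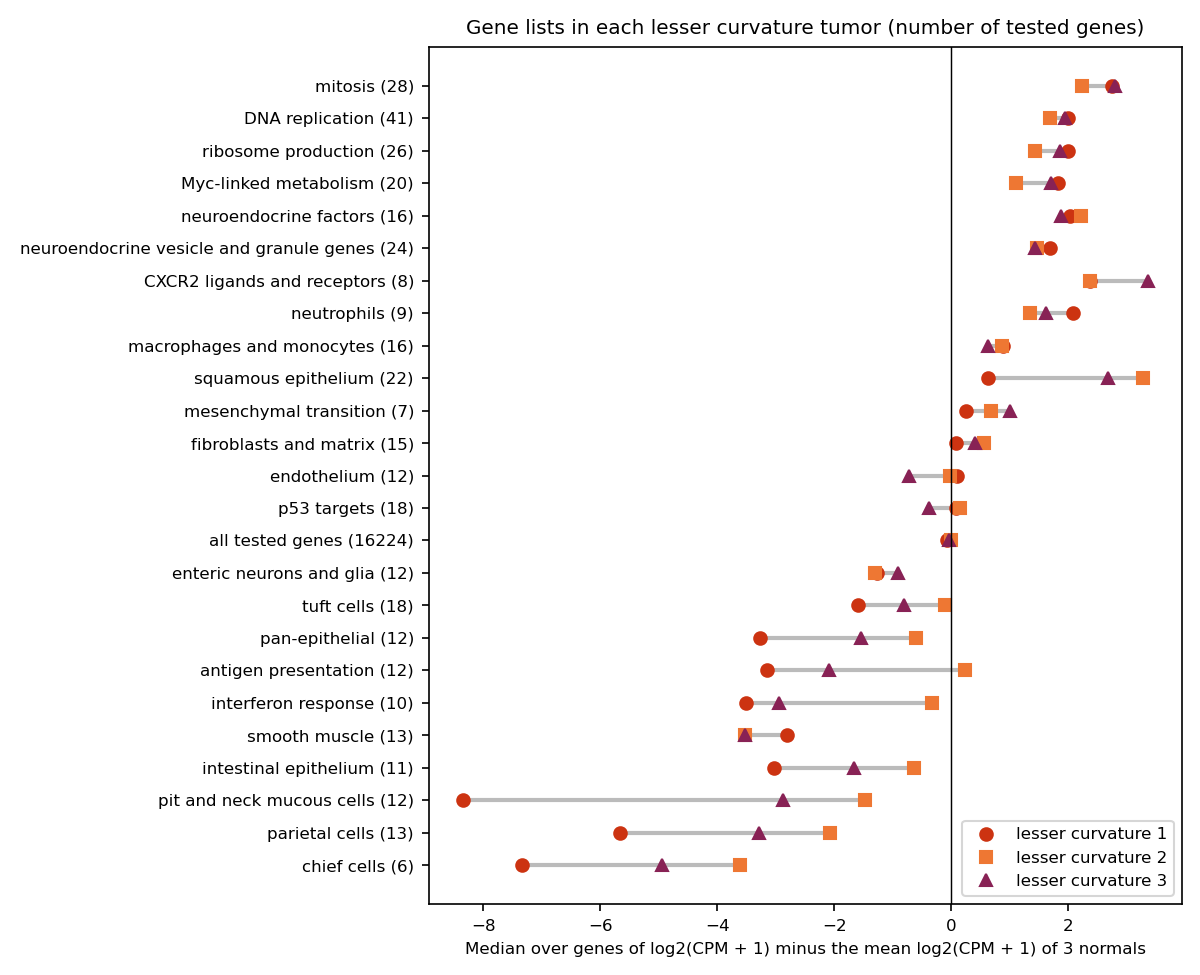
Median over the tested genes of each list (number in brackets) of log2(CPM + 1) in each lesser curvature tumor minus the mean log2(CPM + 1) of the 3 normals. The 3 symbols lie close together for mitosis, DNA replication, ribosome production and both neuroendocrine lists, and far apart for chief, parietal, mucous, interferon and antigen presentation genes, where lesser curvature 1 is lowest and lesser curvature 2 highest.

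The tumors thus shared the size of some changes and not of others. The median replication gene was 1.99, 1.69 and 1.94 above the normals in lesser curvature 1 to 3, on the log2(CPM + 1) scale, and the median neuroendocrine factor 2.03, 2.22 and 1.87. The median parietal gene was at -5.67, -2.08 and -3.28 and the median mucous gene at -8.35, -1.48 and -2.87. The spread among the tumors was thus wide for the gastric lists and narrow for replication.

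Whether these changes were particular to the lesser curvature was tested against the mean of the 9 tumors of the other 3 sites, in the same model. Of 16224 genes 1 was higher (0.00616%) and 0 were lower, with 977 higher and 786 lower at an unadjusted p under 0.05, and 161 higher and 87 lower with DESeq2. The gene, named after its values were seen, was Sprr2h (chromosome 3, 92385685 to 92387324), a small proline-rich protein of the cornified squamous envelope, at 1.42, 2.69 and 2.44 CPM in the lesser curvature tumors and at most 0.139 CPM in the other 9 tumors. Its log2 difference was 6.37 (SE 0.64, adjusted p = 0.024), and that call was lost without any 1 library of these 12 except antrum 1 and antrum 2 (adjusted p from 0.0556 to 0.22). The normals held 3 counts of Sprr2h, and it was 26.3-fold higher in the tumors than in them (95% counting interval 8.77 to 129.8; adjusted p = 0.00637). Sprr2 genes are near-identical copies, and the sources used here do not say how reads were shared between them.

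The squamous list had a median of 5.40 against the other sites, with 0 of 22 genes called, 8 with DESeq2 and 10 when only the 12 tumors were fitted. That fit, which leaves out the spread of the normals, called 117 genes higher and 0 lower. Among them were the cornified genes Lor, Krt1 and, also named after its values were seen, Flg. Krt6a was at most 26.6 CPM in the other 9 tumors and at least 75.3 CPM in the lesser curvature tumors, and Krt1 at most 1.46 CPM against at least 35.6 CPM, so the groups did not overlap. The differences were 5.04 (adjusted p = 0.313) and 9.26 (adjusted p = 0.233). For replication, mitosis and neuroendocrine factors the medians against the other sites were 0.29, 0.44 and 1.15, with no gene of these lists called. Myc was 1.07 higher (adjusted p = 0.454), and 95.2 to 475 CPM in the other 9 tumors overlapped the lesser curvature values. Mmp10 and Cxcl5 differed by 0.32 (adjusted p = 0.754) and 0.24 (adjusted p = 0.891), Muc6 by -3.0 (adjusted p = 0.45) and Smtn by -0.24 (adjusted p = 0.575).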

How the data were processed

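Bulk RNA-seq libraries (RNeasy extraction, paired-end reads on an Illumina instrument, per the labels) were analysed from 2 deposited tables. Named in the submitters' processing notes, with no role or order, are the genome build GRCm38.p6 and the tools DESeq2, sleuth, kallisto 0.44.0 and bcl2fastq 2.19. Whole-number expected counts of 36144 gene entries make up the first table deposited by the authors. The other deposited table holds TPM, since each column sums to 1e+06, although it is named for another unit; the design had assumed only a normalized table. The sources used here do not name the annotation or how transcripts were summed to genes. Of the symbols 99.3% are in GENCODE M21, which gave the coordinates on GRCm38, and 26 had been turned into dates.

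Counts were fitted with edgeR 4.0.16 (R 4.3.3) in 1 quasi-likelihood model of all 15 samples by group, with robust dispersions, TMM scaling and filterByExpr at a minimum count of 10. Contrasts were lesser curvature minus normal and lesser curvature minus the mean of the other 3 sites. Genes were called at a Benjamini-Hochberg adjusted p under 0.05. A count stands for 0.0478 to 0.112 CPM in the tumors and 0.0735 to 0.0872 CPM in the normals. Counting intervals are exact at 95%, and like the floor of 3 counts they cover counting error only. The 46 gene lists and the genes named were chosen with earlier results of these data known. The naming rule took the genes of the engineered alleles, Cxcl5, Cxcr2, Neurod1, Chga, Syp and Dclk1, the 10 called genes with the largest increase and the 10 with the largest decrease among those without overlap and with a mean of at least 10 CPM, and up to 4 genes of smallest p from each list. Any other gene was picked after its values were seen, and the text says so. Some genes that the rule took are not reported here.

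Alternatives were DESeq2 1.42.0, its size factors in edgeR, no filter, a block for the replicate number, limma 3.58.1 on log2 of TPM plus 1 or 0.1, only the samples compared, and each library left out. Same-numbered normals and tumors deviated together from their group means (correlations 0.37, 0.30 and 0.14 for numbers 1 to 3). The block and the paired fit treat the numbers as pairs on that basis, but the sample titles give only a replicate number. Deviations cancel out within a group, so these correlations depend on one another and cannot establish a pairing. The main test is by group only and uses no pairing. The block over all 15 samples also applied the numbers to the corpus tumors, which did not deviate together with the lesser curvature tumors. The edgeR code was also run on counts simulated from its own fitted dispersions, which checks the code and not the results. Promoter windows are from RefSeq on GRCm38.p6.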

Additional observations from a re-analysis of the deposited data

Results flagged for a closer look

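Sprr2h, a gene of the cornified squamous envelope, differed between tumor sites by a direct test. Its log2 change in lesser curvature tumors against the mean of the other 3 sites was 6.37 (SE 0.64, edgeR adjusted p = 0.024), and all 3 lesser curvature tumors were above all 9 tumors of the other sites. It rests on few counts, 104 over the 3 lesser curvature tumors. The call was lost when any tumor library except antrum 1 and antrum 2 was left out. How reads were shared between the near-identical Sprr2 genes is not stated.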

How the results depend on the processing

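Against normal, the counts of genes higher and lower were 2955 and 2490. They became 6550 and 698 with limma on log2 TPM plus 1, 6603 and 635 with TPM plus 0.1, and 6497 and 611 on TPM with no filter. Leaving out 1 library gave 1415 to 2979 higher and 744 to 2764 lower. The cause was not tested, but a library left out also leaves fewer samples. The other settings kept both counts within 1.5 times. With the replicate block they were 3219 and 3160. Of the genes named, the block ended the calls of Nkx6-3, Zg16 and Tff2 and added 5, and it changed no other of their calls. With only the 6 libraries compared and the block, the calls of 18 named genes were lost (adjusted p from 0.0502 to 0.19), those of A4gnt, Angpt2, Cdkn2a, Cdkn2b, Chia1, Chrm3, Clps, Gata6, Ghrl, Gif, Gkn3, Isl1, Muc6, Pgc, Rab3b, Rrm2b, Tff2 and Zg16, and Insm1, Neurod1, Krt6a and H2-K1 were called. With those 6 and no block 10 calls were lost, with no filter 7, and 8 in the fit of log2 TPM plus 1, those of Ccng1, Cdkn1c, Esrrg, Fgb, Gast, Pdx1, Prap1 and Zg16. DESeq2 added 3 calls among the named genes and ended none. Rrm2b turned to 0.23, 0.26 and 0.23 in the 3 TPM fits, and without normal 2 the signs of 4 squamous genes turned. Over the libraries left out, Krt1 ran from -3.62 to 8.83, Krt13 from -2.13 to 11.1, Lor from -2.94 to 6.95 and Tgm3 from -4.34 to 4.21.

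Against the other sites, the 1 gene higher became 161 higher and 87 lower with DESeq2, 26 higher with the replicate block, 10, 2 and 22 higher in the 3 TPM fits in the same order, and 117 higher in a fit of the 12 tumors only. Leaving out 1 library gave 0 or 1. Leaving out greater curvature 2 and corpus 1 together, chosen after the data were seen, gave 0. Same-numbered tumors deviated together for lesser curvature and antrum (correlations 0.66, 0.63 and 0.39) and for lesser curvature and greater curvature (0.41, 0.55 and 0.16), but not for lesser curvature and corpus (-0.38, -0.16 and -0.03), so not every pair passed 0.1 and the numbers were not taken to pair the tumors over the 3 sites. With the block 5 of the 22 squamous genes were higher than at the other sites, with a median of 6.30. Depth limits lesser curvature 2 most, where 1 count is 0.112 CPM.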

Other observations

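Mitochondrially encoded genes were lower for 5 of 9 in the lesser curvature tumors against normal, with a median log2 fold change of -1.13, and for 8 of 9 with the replicate block. On the TPM table the median was -0.30 and none was called. Their share of all counts was 9.37%, 5.82% and 5.49% in the normals and 6.36%, 4.33% and 4.13% in the tumors. Of 13 glycolysis and hypoxia genes 1 was lower and none higher, and of 12 genes of the EGF receptor family and its ligands none passed with edgeR, while DESeq2 called 2 lower. Of 7 pancreatic acinar genes tested 1 was lower. None of 3 adipocyte genes or 5 mesothelial genes tested passed with edgeR, while DESeq2 called 2 and 0 of them.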
